A study of Mus musculus with 9 samples.

Results

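The genes described here are targets of the tumor suppressor p53, measured in mouse bone marrow cells that carried wild-type or mutant IDH1. They were given by name as a list of 10, namely Mdm2, Ddb2, Fas, Ccng1, Rps27l, Trp53inp1, Sesn2, Zmat3, Phlda3 and Trp53, the gene of p53 itself. A gene was measured through the probe set whose single gene symbol was that name. By this rule 9 of the 10 were found among the 17731 genes of the table, each with 1 probe set. No single-symbol probe set of Trp53 was found in the table used here, so its level was not analysed here.

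The cells came from bone marrow of C57BL6 mice that had been immortalised with HoxA9, a homeobox oncogene of myeloid leukemia. All 3 groups share this step, the retroviral infection, the transfer into irradiated syngeneic recipients, and the sorting of fluorescent marrow cells 4 weeks later. The CTL group received an empty vector with EGFP, the IDH1wt group pSF91 with wild-type IDH1 ahead of an IRES and EGFP, and the IDH1mut group pSF91 with mutant IDH1 ahead of an IRES and GFP. Each group had 3 arrays. Neither the mutation, nor the ages of the mice, nor whether the arrays of a group came from separate mice or infections is given in the labels, so the tests measure only the spread between these samples, which may be technical.

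p53 is a transcription factor that is stabilised by DNA damage, oncogene signalling and other stress. In unstressed cells the ubiquitin ligase Mdm2, with its relative Mdm4, binds p53 and keeps it low. Mdm2 is itself a p53 target, which closes a feedback loop, and the p19Arf protein of the Cdkn2a locus binds Mdm2 and relieves p53 of it. The targets act in arrest of the cell cycle, in DNA repair, in death receptor signalling and in metabolic stress. The sequence p53 binds consists of a pair of decamers called half-sites, which may be separated by a short spacer.

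Upstream sequences were looked up for the members, since several of them moved together. RefSeq windows (GRCm38.p6) of 250 bases before to 50 bases after an annotated start were given for 6 of the 9 measured members, in 7 windows. Windows for Ddb2, Trp53inp1 and Zmat3 were not analysed here. The p53 half-site consensus, which reads the same on the other strand, was matched without mismatch in the windows of 3 members, namely Mdm2, Ccng1 and Rps27l. An exact half-site was found in 8.36% of all 32851 windows. A pair of half-sites with at most 1 mismatch in its 20 positions and at most 13 bases between them was found in 1.09% of all windows, and among the members in Ccng1 and in the second window of Rps27l. These matches describe letters and show no binding, and sequence beyond these windows was not analysed here. The Mdm2 stretch (chr10:117710809-117711008, minus strand) and the Ccng1 stretch (chr11:40755337-40755536, minus strand) run from 250 to 51 bases before the start. The Rps27l stretch (chr9:66946263-66946362, plus strand) is from the second of its 2 windows and runs from 150 to 51 bases before that start. All are written 5′ to 3′, and capitals mark the exact half-site of Mdm2 and the pairs of half-sites of Ccng1 and Rps27l.
Mdm2: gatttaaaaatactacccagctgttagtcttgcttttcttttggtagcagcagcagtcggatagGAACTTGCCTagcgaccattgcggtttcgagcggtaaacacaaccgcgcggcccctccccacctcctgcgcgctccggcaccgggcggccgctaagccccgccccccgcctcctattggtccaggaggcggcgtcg
Ccng1: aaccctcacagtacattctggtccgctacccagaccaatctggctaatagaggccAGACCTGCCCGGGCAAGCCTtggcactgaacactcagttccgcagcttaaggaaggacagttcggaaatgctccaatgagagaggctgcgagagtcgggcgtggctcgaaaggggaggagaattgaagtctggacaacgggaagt
Rps27l: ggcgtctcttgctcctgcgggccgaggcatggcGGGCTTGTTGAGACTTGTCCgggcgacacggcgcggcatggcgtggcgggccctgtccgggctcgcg

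The values were log2 expression per probe set, and array medians lay between 4.65 and 4.72. Correlations over genes were 0.992 to 0.997 between arrays of a group and 0.982 to 0.992 between groups. Myeloid genes read high, as with Mpo at 13.28 to 13.33 and S100a8 at 13.90 to 13.96 on the CTL arrays, while the T cell gene Cd4 read 3.39 to 3.80. A linear model in limma was fitted to all 17731 genes over the 9 arrays, and p-values were adjusted over all genes by the Benjamini-Hochberg method. "Rose", "fell" and "changed" mark an adjusted p under 0.05. Differences are between group means on the log2 scale, ± the standard error (SE) or with the 95% confidence interval, at 3 arrays against 3, and group means are given ± SD. The comparisons of IDH1wt and of IDH1mut with CTL share the CTL arrays.

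In IDH1mut against CTL, 6 of the 9 p53 targets rose, namely Mdm2, Ddb2, Fas, Ccng1, Trp53inp1 and Sesn2. Rps27l fell, and Zmat3 and Phlda3 did not pass. Of all genes tested, 20.7% changed in this comparison, 10.1% upward and 10.6% downward. The median difference of the 9 genes was 0.47 and that of all genes -0.04. In IDH1wt against CTL, 0 of the 9 passed in limma, 3 had an unadjusted p under 0.05, and the median difference was 0.12. In limma 2.33% of all genes changed in this comparison. In the unmoderated test per gene the count of changed members was also 0, and 58 genes changed in all. In IDH1mut against IDH1wt, 3 of the 9 rose (Mdm2, Ddb2 and Fas) and 0 fell, against 6.54% and 6.78% of all genes. The 9 genes were chosen with earlier results of these data known, so the counts describe them and are no independent support.

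**Figure D1:**
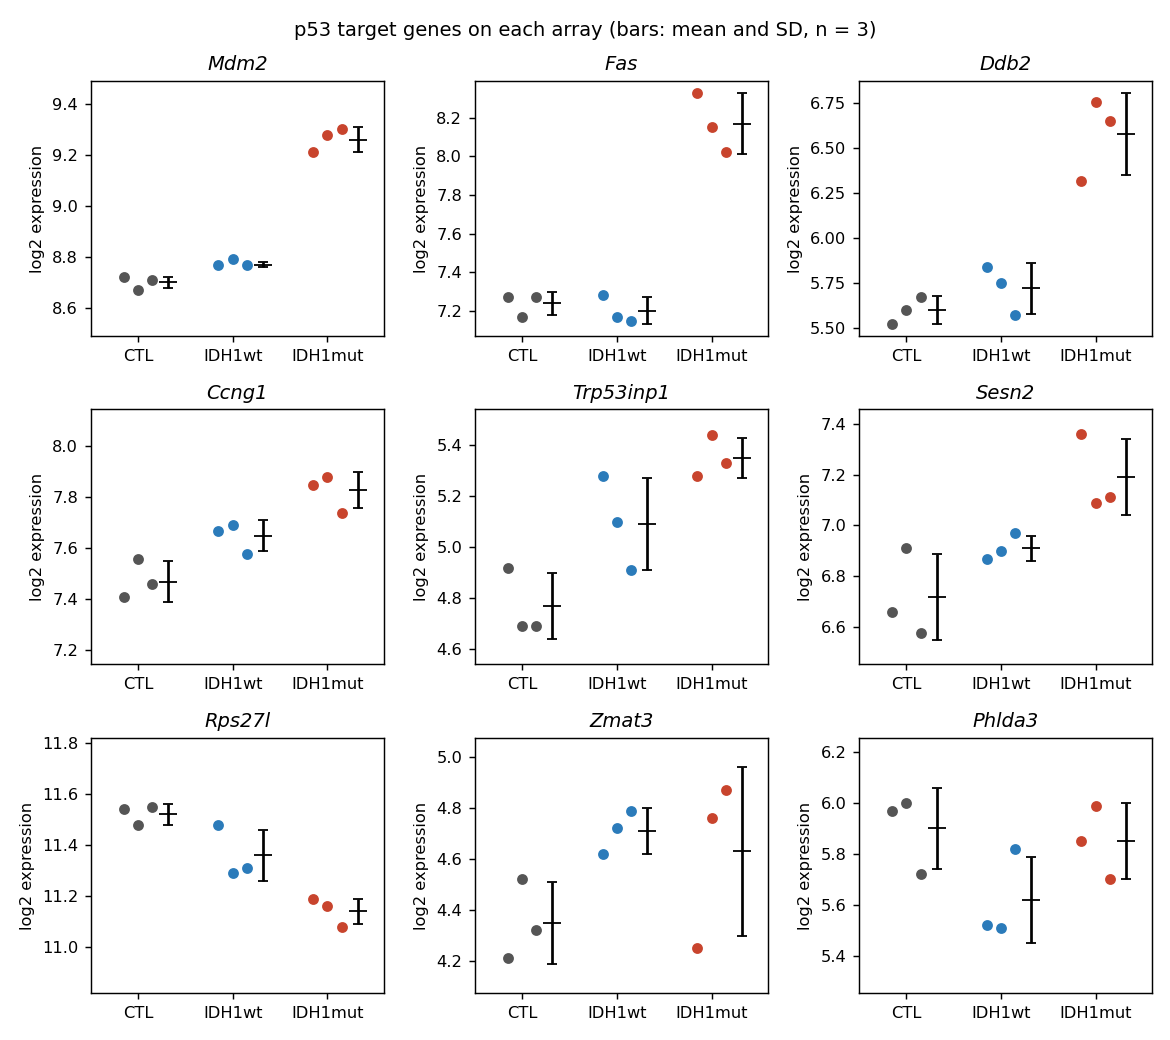
Log2 expression (y axis) of the 9 measured p53 target genes on each array of the CTL, IDH1wt and IDH1mut groups; points are single arrays and bars the mean and SD of 3. The IDH1mut arrays lie above all CTL arrays for 6 genes and below them for Rps27l, and the scale differs between panels.

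Mdm2, the ligase that marks p53 for degradation, read 8.72, 8.67 and 8.71 on the CTL arrays. It read 8.77, 8.79 and 8.77 with IDH1wt and 9.21, 9.28 and 9.30 with IDH1mut. The IDH1mut arrays stood clear of the other 6, and the IDH1wt arrays lay just above CTL. The difference of IDH1mut from CTL was 0.56 ± 0.08 (SE), or 1.48-fold (adjusted p = 0.000773). Against IDH1wt it was 0.49 ± 0.08 (adjusted p = 0.00318). IDH1wt and CTL differed by 0.07 (95% confidence interval -0.11 to 0.25; adjusted p = 0.703), although their arrays did not overlap, as was the case for 23.6% of all genes. Mdm2 had the smallest SD of the 9 members in each group, between 0.01 and 0.05.

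Fas, the death receptor through which Fas ligand triggers apoptosis, read 7.27, 7.17 and 7.27 with CTL. The IDH1wt arrays gave 7.28, 7.17 and 7.15, and the IDH1mut arrays 8.33, 8.15 and 8.02. CTL and IDH1wt overlapped, and IDH1mut was higher on 3 of 3 arrays. Fas was 1.91-fold higher in IDH1mut than in CTL (0.93 ± 0.10; adjusted p = 0.000142) and 1.96-fold higher than in IDH1wt (0.97 ± 0.10; adjusted p = 0.000246). The difference of IDH1wt from CTL was -0.04, with an interval of -0.26 to 0.19 that leaves out a rise of the size seen in IDH1mut. Of its partners, Fasl, the ligand, was at 0.22 ± 0.16 (adjusted p = 0.388) in IDH1mut against CTL. Fasl read 2.88 to 3.14 with CTL and 3.01 to 3.50 with IDH1mut, levels that may be background. Fadd, the adaptor, fell against IDH1wt (-0.34 ± 0.09; adjusted p = 0.0233) and was at -0.25 ± 0.09 against CTL (adjusted p = 0.0585). Fasl and Fadd are named after their values were seen.

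Ddb2, the DNA damage sensor of nucleotide excision repair, read 5.52, 5.60 and 5.67 with CTL. With IDH1wt it read 5.84, 5.75 and 5.57, and with IDH1mut 6.32, 6.76 and 6.65. The lowest IDH1mut array was above the highest of the other 6. Ddb2 was 1.97-fold higher in IDH1mut than in CTL (0.98 ± 0.13; adjusted p = 0.000373) and 1.81-fold higher than in IDH1wt (0.86 ± 0.13; adjusted p = 0.0016). IDH1wt stood at 0.12 from CTL (interval -0.15 to 0.40). Ddb1, the protein Ddb2 binds in its ubiquitin ligase complex, fell in IDH1mut against CTL (-0.39 ± 0.08; adjusted p = 0.00683), from 9.45, 9.43 and 9.39 to 9.04, 9.07 and 8.98. Of the scaffold proteins of that complex, Cul4b rose (0.35 ± 0.09; adjusted p = 0.0188) and Cul4a was at 0.00 ± 0.11. Cul4b was at a like level with IDH1wt, at 0.38 ± 0.09 from CTL (adjusted p = 0.0555), and IDH1mut was at -0.03 ± 0.09 from IDH1wt. Ddb1, Cul4b and Cul4a are named after their values were seen.

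For the other 3 risen members the difference between IDH1mut and IDH1wt did not pass. Ccng1, which encodes cyclin G1, read 7.41, 7.56 and 7.46 with CTL, 7.67, 7.69 and 7.58 with IDH1wt, and 7.85, 7.88 and 7.74 with IDH1mut. Its 3 groups did not overlap, in the order CTL, IDH1wt, IDH1mut. The difference of IDH1mut from CTL was 0.35 ± 0.09, or 1.28-fold (adjusted p = 0.0168). Leaving out CTL replicate 1 ended the call (adjusted p = 0.0793), as did leaving out CTL replicate 3 (adjusted p = 0.0549) and leaving out IDH1mut replicate 2 (adjusted p = 0.0603). Neither neighbour step passed, with 0.17 (interval -0.02 to 0.37) from CTL to IDH1wt and 0.18 (interval -0.02 to 0.37) from IDH1wt to IDH1mut. The window of Ccng1 holds a pair of half-sites, printed above, and so does the second window of Rps27l, the member that fell. The windows of Fas and Sesn2, which rose, hold no exact half-site. The part of these sites in the differences was not tested.

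Trp53inp1, a nuclear protein that promotes p53-dependent cell death and autophagy, read 4.92, 4.69 and 4.69 with CTL. It read 5.28, 5.10 and 4.91 with IDH1wt and 5.28, 5.44 and 5.33 with IDH1mut. The IDH1wt arrays spread from the top of CTL to the bottom of IDH1mut. The gene rose in IDH1mut against CTL (0.59 ± 0.11; adjusted p = 0.00413). IDH1wt differed from CTL by 0.33 (interval 0.08 to 0.58; adjusted p = 0.175), and IDH1mut from IDH1wt by 0.26 (interval 0.01 to 0.51; adjusted p = 0.175).

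Sesn2, a sestrin that restrains mTORC1 and counters oxidants, read 6.66, 6.91 and 6.58 with CTL. It read 6.87, 6.90 and 6.97 with IDH1wt and 7.36, 7.09 and 7.11 with IDH1mut. CTL replicate 2 reached the level of the IDH1wt arrays. Sesn2 rose 1.38-fold in IDH1mut against CTL (0.47 ± 0.11; adjusted p = 0.0129), with the call lost without CTL replicate 1 (adjusted p = 0.0547) or CTL replicate 3 (adjusted p = 0.0575). IDH1wt differed from CTL by 0.20 (interval -0.05 to 0.45). The related Sesn1 and Sesn3 did not pass in IDH1mut against CTL, at 0.19 ± 0.11 (adjusted p = 0.252) and 0.28 ± 0.11 (adjusted p = 0.108), and are named after their values were seen.

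Rps27l, a ribosomal protein paralogue that p53 induces in other cells, was the 1 member that fell. It read 11.54, 11.48 and 11.55 with CTL, 11.48, 11.29 and 11.31 with IDH1wt, and 11.19, 11.16 and 11.08 with IDH1mut. The IDH1mut arrays were lowest, and IDH1wt replicate 1 read as CTL did. Rps27l fell to 76.8% of CTL in IDH1mut (-0.38 ± 0.09; adjusted p = 0.0116). Against IDH1wt it was at -0.22 ± 0.09 (adjusted p = 0.145), which passed when the arrays were quantile-normalised again (-0.27; adjusted p = 0.0472) or with an intensity trend and robust variances (adjusted p = 0.0319). Rps27, the paralogue that Rps27l resembles, did not pass in IDH1mut against CTL (-0.15 ± 0.10; adjusted p = 0.329). It read 6.22, 6.15 and 6.19 with CTL, far below Rps27l. Whether each probe set reads its own paralogue well, and that paralogue alone, was not analysed here.

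Zmat3, an RNA-binding zinc finger protein, read 4.21, 4.52 and 4.32 with CTL. It read 4.62, 4.72 and 4.79 with IDH1wt and 4.25, 4.76 and 4.87 with IDH1mut. IDH1mut replicate 1 stayed with CTL while the other two lay with the IDH1wt arrays. The difference of IDH1mut from CTL was 0.28 (interval -0.06 to 0.61; adjusted p = 0.239), and without IDH1mut replicate 1 it was 0.47 and passed (adjusted p = 0.0207). IDH1wt differed from CTL by 0.36 (interval 0.03 to 0.69; adjusted p = 0.262), with arrays that did not overlap.

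Phlda3, a repressor of the kinase Akt, read 5.97, 6.00 and 5.72 with CTL and 5.85, 5.99 and 5.70 with IDH1mut. These groups overlapped, and their difference was -0.05 (interval -0.32 to 0.23; adjusted p = 0.849). The IDH1wt arrays read 5.52, 5.51 and 5.82, a difference of -0.28 from CTL (interval -0.55 to -0.01; adjusted p = 0.284).

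The order of the group means was CTL, IDH1wt, IDH1mut from low to high for 5 of the 9 genes (Mdm2, Ddb2, Ccng1, Trp53inp1 and Sesn2) and the reverse for Rps27l. The arrays of IDH1mut and CTL did not overlap for 7 of the 9, against 37.8% of all genes. Those of IDH1mut and IDH1wt did not overlap for 7 either, against 29.5% of all genes. Those of IDH1wt and CTL did not overlap for 3, against 23.6%.

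**Figure D2:**
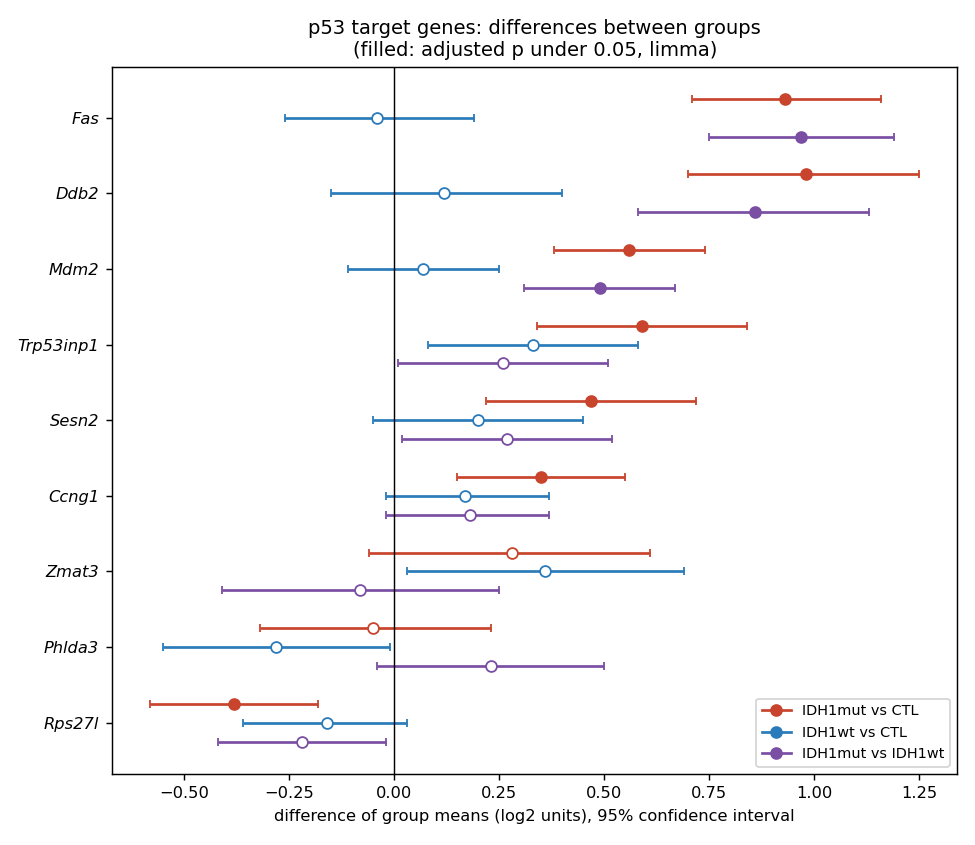
Differences of group means in log2 units (x axis) with 95% confidence intervals for the 9 p53 target genes (y axis) in the 3 comparisons; filled points have an adjusted p under 0.05 in limma. Fas, Ddb2 and Mdm2 are filled in both comparisons of IDH1mut, and no point of IDH1wt vs CTL is filled.

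Genes that act on p53 moved in both directions in IDH1mut. Of 20 measured genes on this list, 4 rose and 5 fell against CTL, at a median of -0.07, beside 10.1% and 10.6% of all genes. The risen genes were Mdm4, Cop1, Rchy1 and Usp7. Mdm4, the relative of Mdm2 that blocks p53 activity, read 8.07, 8.04 and 8.12 with CTL, 8.52, 8.60 and 8.51 with IDH1wt, and 9.06, 9.10 and 9.52 with IDH1mut. The groups were fully apart, and Mdm4 was 2.22-fold higher in IDH1mut than in CTL (1.15 ± 0.12; adjusted p = 0.000113) and 1.61-fold higher than in IDH1wt (0.68 ± 0.12; adjusted p = 0.00394). IDH1wt against CTL missed the threshold (0.47 ± 0.12; adjusted p = 0.0678) and passed it under 5 of 18 alternatives, with adjusted p from 0.0188 to 0.209 over all of them. Cop1 and Rchy1 encode ubiquitin ligases that, like Mdm2, mark p53 for degradation. Cop1 read 9.74 to 9.76 with CTL, 9.84 to 9.99 with IDH1wt and 10.37 to 10.58 with IDH1mut, a rise of 0.69 ± 0.09 over CTL (adjusted p = 0.000542). Rchy1 rose by 0.66 ± 0.11 over CTL (adjusted p = 0.00138) and by 0.61 ± 0.11 over IDH1wt (adjusted p = 0.00388). Usp7, which removes ubiquitin from Mdm2 and p53, rose by 0.69 ± 0.13 (adjusted p = 0.0039), from 7.28 to 7.36 on the CTL arrays to 7.95 to 8.10. Its IDH1wt arrays read 7.47, 8.05 and 7.87, at 0.48 ± 0.13 from CTL (adjusted p = 0.0927). The difference of Usp7 between IDH1mut and IDH1wt did not pass (0.21 ± 0.13; adjusted p = 0.349).

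Cdkn2a fell furthest on this list. It read 6.51, 5.83 and 6.78 with CTL, 5.96, 5.60 and 5.52 with IDH1wt, and 4.10, 3.89 and 3.91 with IDH1mut. The IDH1mut arrays lay more than a log2 unit under every other array, below the array medians. The difference from CTL was -2.41 ± 0.21, or 18.8% of the CTL level (adjusted p = 3.73e-05), and that from IDH1wt -1.73 ± 0.21 (adjusted p = 0.000506). Which of the transcripts for p16Ink4a and p19Arf the probe set reads was not analysed here. The other 4 fallen genes, named after their values were seen, were Hipk2 (-0.50), Kat5 (-0.46), Rpl11 (-0.36) and Npm1 (-0.30). Hipk2 and Kat5 modify p53, whereas Rpl11 binds Mdm2 and Npm1 binds p19Arf. The count of 5 fallen genes was 2 without CTL replicate 1, 3 without CTL replicate 2, 1 without CTL replicate 3 and 3 without IDH1mut replicate 2. In IDH1wt against CTL, 0 of the 20 rose and 0 fell in limma. With array weights 2 rose and 1 fell, and with trend and robust variances 2 rose. The count risen was 1 among the brighter genes, in the fit on 6 arrays, and without IDH1wt replicate 1 or IDH1mut replicate 3. Without CTL replicate 2 the count fallen was 1.

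**Figure D3:**
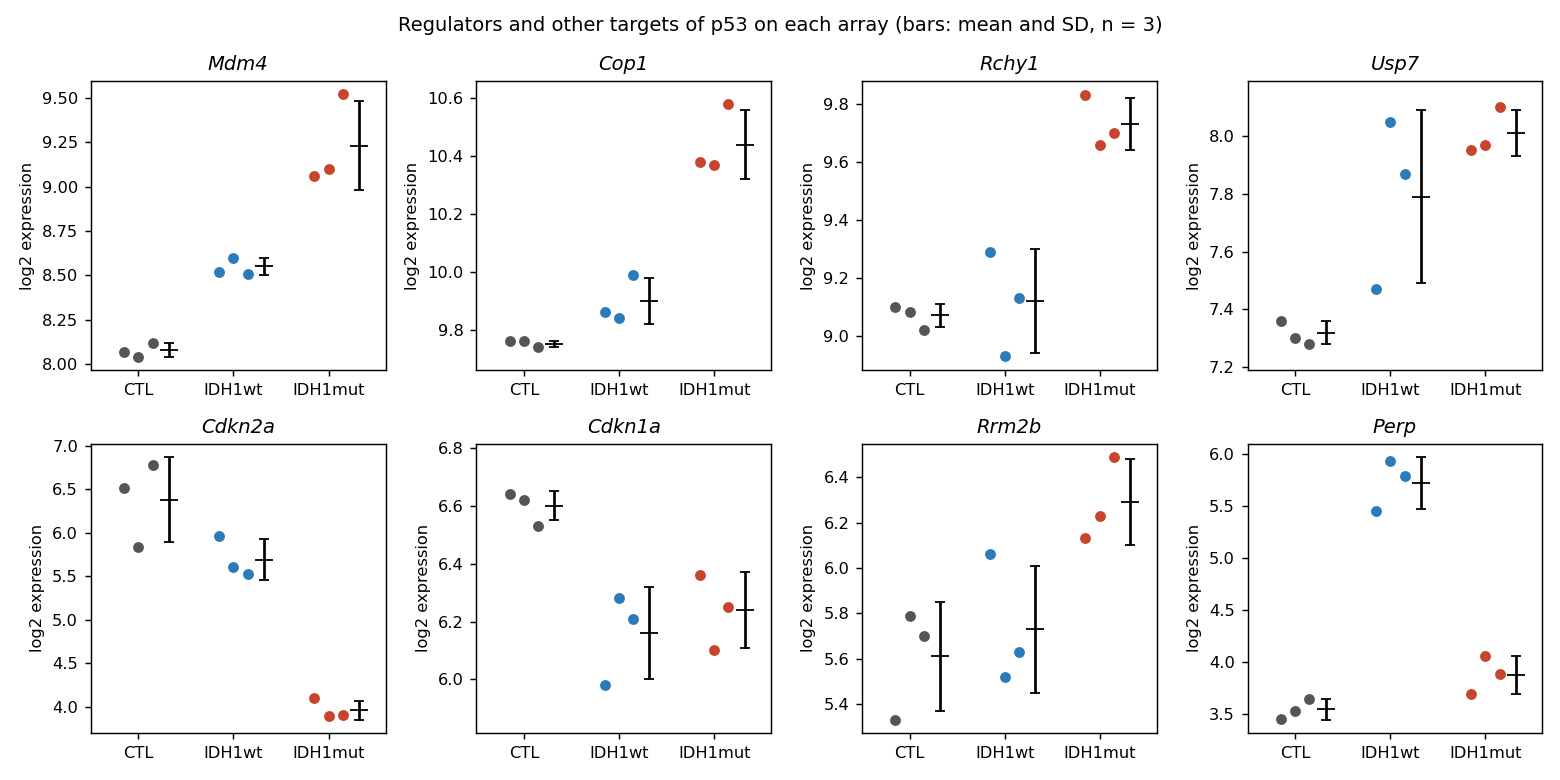
Log2 expression (y axis) of 4 regulators of p53 that rose (top row), of Cdkn2a, and of the p53 targets Cdkn1a, Rrm2b and Perp, on each array; points are arrays and bars the mean and SD of 3. Mdm4 and Cop1 are highest with IDH1mut, Cdkn2a is lowest with IDH1mut, and Perp is highest on the IDH1wt arrays.

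A wider set of 36 measured p53 targets gave other counts than the 9 genes. In IDH1mut against CTL, 1 rose and 3 fell, at a median of -0.03, where 10.1% and 10.6% of all genes did. The count risen was 5 among the brighter genes, 5 with array weights, 4 with trend and robust variances, 2 without IDH1wt replicate 2, and 0 in the unmoderated test or without CTL replicate 1. The risen gene was Rrm2b, a ribonucleotide reductase subunit that supplies nucleotides for repair. It read 5.33, 5.79 and 5.70 with CTL and 6.13, 6.23 and 6.49 with IDH1mut (0.68 ± 0.16; adjusted p = 0.0129), with a call lost without CTL replicate 1 or IDH1mut replicate 3 (adjusted p = 0.0585 each). The fallen genes were Cdkn1a, Ei24 and Dcxr. Cdkn1a, which encodes the CDK inhibitor p21, read 6.64, 6.62 and 6.53 with CTL and 6.36, 6.10 and 6.25 with IDH1mut (-0.36 ± 0.11; adjusted p = 0.036). Its IDH1wt arrays were as low, at 5.98, 6.28 and 6.21 (-0.44 ± 0.11 from CTL; adjusted p = 0.0619). The count of 3 fallen genes was 0 without any of CTL replicates 1, 2 and 3 or IDH1mut replicates 2 and 3, and 1 with the replicate number as a block, where Cdkn1a (adjusted p = 0.0659) and Ei24 (adjusted p = 0.0581) lost their calls.

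By role, the targets of arrest had 0 of 9 risen and 1 fallen, and those of cell death 0 of 13 risen and 1 fallen. Those of repair had 1 of 6 risen and 0 fallen, and those of metabolism 0 of 8 risen and 1 fallen (Dcxr, -0.47 ± 0.15; adjusted p = 0.0425). The BH3 genes Bbc3 (-0.18 ± 0.09; adjusted p = 0.224) and Pmaip1 (0.40 ± 0.14; adjusted p = 0.0662), which encode Puma and Noxa, did not pass, and are named after their values were seen. Against IDH1wt, 4 of the 36 rose and 2 fell, beside 6.54% and 6.78% of all genes. Btg2, an antiproliferative gene, was 1.71-fold higher (0.77 ± 0.12; adjusted p = 0.00261), with IDH1wt at 9.47, 9.65 and 9.57 and IDH1mut at 10.59, 10.14 and 10.26. Gadd45a (0.47 ± 0.12; adjusted p = 0.0209), Plk3 (0.54 ± 0.15; adjusted p = 0.0358) and Rrm2b (0.55 ± 0.16; adjusted p = 0.047) rose too. The count of 4 risen genes was 1 without IDH1wt replicate 3, without IDH1mut replicate 1 or without IDH1mut replicate 2, and 2 without CTL replicate 3. With the replicate number as a block, Rrm2b lost its call (adjusted p = 0.0784) and so did Ei24 (adjusted p = 0.0591). The fallen genes were Perp and Ei24 (-0.38 ± 0.10; adjusted p = 0.0323), and the call of Ei24 was lost under 9 of 18 alternatives. The count of 2 was 1 on leaving out CTL replicate 1, any of the IDH1wt arrays, or IDH1mut replicate 2 or 3.

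Perp, a p53 effector gene that encodes a tetraspan membrane protein, was the exception in IDH1wt. It read 3.45, 3.52 and 3.64 with CTL, 5.45, 5.93 and 5.79 with IDH1wt, and 3.69, 4.05 and 3.88 with IDH1mut. The IDH1wt arrays stood above the other 6. The fitted difference of IDH1wt from CTL was 2.18 ± 0.14, or 4.55-fold (adjusted p = 1.16e-05), and it fell in IDH1mut against IDH1wt (-1.85 ± 0.14; adjusted p = 3.2e-05). It was the 1 gene of the 36 to rise in IDH1wt against CTL, and 0 fell, beside 1.62% and 0.711% of all genes. The CTL values lie in the range of the T cell gene Cd4, and no detection call shows whether they are above background, so the fold rests on a level that may be background. The count of fallen genes was 3 with array weights, 2 among the brighter genes and 2 with trend and robust variances, and Cdkn1a and Btg2 passed under each of these.

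**Figure D4:**
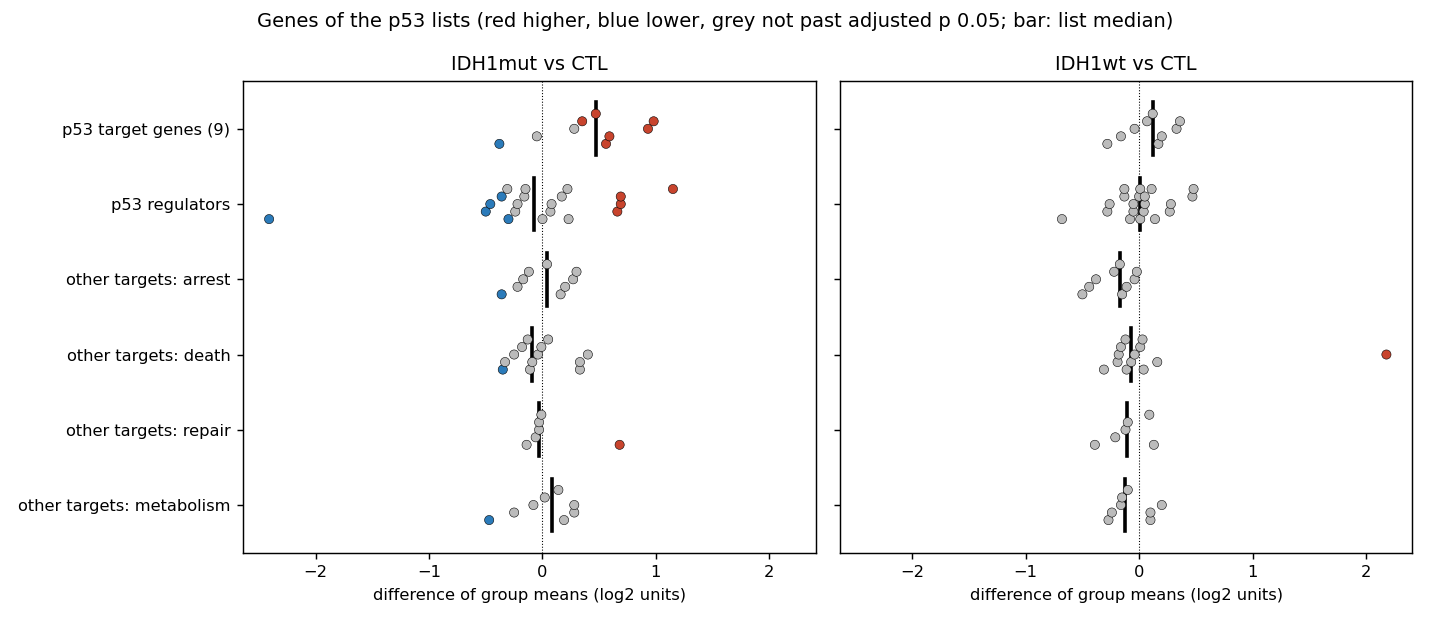
Difference of group means in log2 units (x axis) for each measured gene of the p53 lists (y axis), in IDH1mut vs CTL and in IDH1wt vs CTL; each point is a gene, coloured by its call in limma, and the bar is the list median. The 9 p53 target genes have a median of 0.47 in IDH1mut vs CTL and the lists of other targets lie between -0.09 and 0.08.

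Relatives and partners of the members were a further list, of which 5 of 16 rose and 1 fell in IDH1mut against CTL, at a median of 0.20, beside 10.1% and 10.6% of all genes. The lists share genes. Mdm4, which rose, is also counted among the genes that act on p53, and Sesn1 and Sesn3 among the metabolism targets. Trp53inp2, the paralogue of Trp53inp1, read 5.27, 5.13 and 4.92 with CTL, 5.10, 5.04 and 5.06 with IDH1wt, and 6.22, 5.75 and 5.83 with IDH1mut. It was 1.77-fold higher in IDH1mut than in CTL (0.83 ± 0.13; adjusted p = 0.00135) and showed no IDH1wt step (-0.04; interval -0.33 to 0.25). Ccng2, the cyclin G2 gene, read 7.07 to 7.19 with CTL and 7.68 to 7.74 with IDH1mut (0.58 ± 0.12; adjusted p = 0.0066). Its IDH1wt arrays lay at 6.75 to 7.27, without the middle position of Ccng1. Phlda1 rose by 0.41 ± 0.13 over CTL (adjusted p = 0.049). This call ended on leaving out CTL replicate 1 or 3, IDH1wt replicate 3, or IDH1mut replicate 1 or 2, with adjusted p as high as 0.15.

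Marker genes of several marrow cell types also changed in IDH1mut against CTL, where 10.1% of all genes rose and 10.6% fell. In bulk RNA, fewer cells of a type and less RNA per cell cannot be told apart. Of 12 late neutrophil markers 8 rose and 0 fell in IDH1mut against CTL, with a mean level of 11.77 to 11.93 on the CTL arrays and 12.46 to 12.53 on the IDH1mut arrays. All 9 measured primary granule markers fell, from 11.41 to 11.54 to 10.56 to 10.62. Their part in the rise of Fas, Ddb2 and Mdm2 was not tested. Of 12 erythroid markers 11 rose, from 6.75 to 6.83 to 7.92 to 8.23. On the IDH1wt arrays the erythroid mean level ran from 6.48 to 7.98, and the median deviation of the 9 p53 targets from their own means was -0.07 to -0.05 on the same arrays. The part of erythroid RNA in the differences of the p53 targets was not tested. Of 9 B cell markers 3 rose, and their mean level overlapped between CTL (5.69 to 6.76) and IDH1mut (6.37 to 7.33). Of 9 T and NK cell markers 2 rose, of 10 monocyte and macrophage markers 2 rose and 3 fell, and of 8 stromal and endothelial markers 1 rose and 1 fell. Against IDH1wt, 8 of the 12 late neutrophil markers rose and 8 of the 9 primary granule markers fell. There, 0 of the 12 erythroid markers changed, but all 12 differences were positive, at a median of 0.79. The erythroid level spread widely between the IDH1wt arrays, as given above. In the same comparison 0 of the 10 monocyte and macrophage markers rose and 5 fell. The B cell list had 3 risen, the T and NK cell list 2, and the stromal and endothelial list 1 risen and 1 fallen. Of all genes, 6.54% rose and 6.78% fell in IDH1mut against IDH1wt. RMA values have no zero, and among the defining markers Cd4 read 3.39 to 3.80, Hba-a1 3.07 to 3.51, Col3a1 2.42 to 3.06 and Lepr 2.21 to 2.72 over the 9 arrays.

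**Figure D5:**
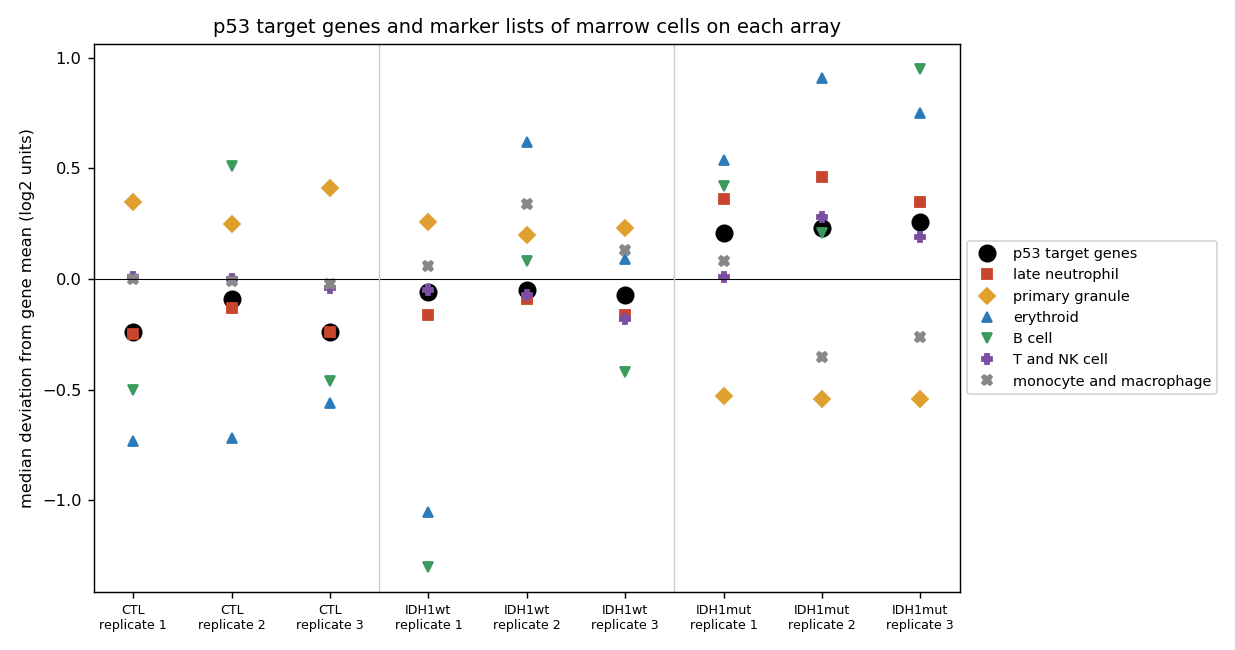
Median deviation of a list's genes from their means over the 9 arrays, in log2 units (y axis), on each array (x axis), for the p53 target genes and 6 marker lists. The p53 target genes lie at 0.21 to 0.26 on the IDH1mut arrays, -0.07 to -0.05 on the IDH1wt arrays and -0.24 to -0.09 on the CTL arrays, and the erythroid list spreads from -1.05 to 0.62 within IDH1wt.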

How the data were processed

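RNA of 9 samples, 3 each of CTL, IDH1wt and IDH1mut, had been hybridised to Affymetrix mouse arrays. The authors deposited log2 expression values per probe set made with RMA, per the submitters' processing notes, and the log2 scale was read from the values (1.72 to 14.2). No RMA version is named there. Precision is limited by the number of arrays.

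Of 20877 probe sets, 17815 had 1 gene symbol in a platform annotation, 244 had several and 2818 none, and only the first kind was used. Where several probe sets shared a symbol, that of highest mean over the arrays stood for the gene (17731 genes). limma 3.58.1 in R 4.3.3 fitted a mean per group over the 9 arrays with moderated, two-sided contrasts and Benjamini-Hochberg adjustment over all genes, at 0.05. The procedure was tested on simulated data with independent noise, which cannot test for shared mice, shared infections or differing cell types. The members and gene lists were chosen with earlier results of these data known. Named genes were all members, Cdkn2a, Cdkn1a, Mdm4 and Rps27, and per list and comparison up to 4 changed genes of largest difference. Genes named outside this rule are marked as named after their values were seen. Alternatives were averaging the probe sets that share a symbol, the brighter genes alone, repeated quantile normalisation, centring, a fit on the 6 arrays compared, trend and robust variances, an unmoderated test, weights per array, a block for the replicate number, and leaving out each array.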

Additional observations from a re-analysis of the deposited data

How the results depend on the processing

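Mdm2, Ddb2, Fas, Trp53inp1 and Rps27l kept direction and call in IDH1mut against CTL under all 18 alternatives run, as did Mdm2, Ddb2 and Fas against IDH1wt. Rps27l came near the threshold without CTL replicate 1 (adjusted p = 0.0489 in limma). Not all alternatives could move these values. Each member has 1 probe set, so averaging probe sets left them as they were. Leaving out an array of the group not compared cannot move a difference, only its SE. The number of members higher in IDH1mut against CTL was 4 to 7 on leaving out single arrays and 6 under each other alternative. The number lower in IDH1mut against IDH1wt was 0 in the fit reported and 1 with quantile normalisation repeated and 1 with trend and robust variances, by the call of Rps27l given above. Over all genes, 3663 changed in IDH1mut against CTL (2370 to 3805 leaving out single arrays, lowest without CTL replicate 1). In IDH1wt against CTL 414 changed (132 to 570 leaving out single arrays), 717 with trend and robust variances, 1226 with array weights and 58 in the unmoderated test. The lowest count came without CTL replicate 1. Leaving out CTL replicate 3 gave 145, as did IDH1wt replicate 3, and leaving out IDH1wt replicate 2 gave 211. In IDH1mut against IDH1wt 2363 changed (1475 to 2193 leaving out single arrays, with 1475 without IDH1wt replicate 3 and 1528 without IDH1mut replicate 2). The cause of these moves was not tested. With the replicate block, 6 members rose and 1 fell in IDH1mut against CTL, and 3383, 314 and 2035 genes changed in the 3 comparisons in the order above. Deviations of same-numbered arrays from their group means correlated at -0.09 to 0.03, and those of other-numbered arrays at -0.08 to 0.08. No pairing by number was seen, but such correlations cannot exclude a shared mouse or infection.

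RMA gives no detection call, so whether low values, such as Perp in CTL and Cdkn2a in IDH1mut, are above background is not known, and their folds are limited by that. The same limit holds for 2 members that read near the array medians. These are Zmat3, at 4.21 to 4.87 over the 9 arrays, and Trp53inp1, at 4.69 to 4.92 with CTL.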
